A study of Mus musculus with 9 samples.

Results

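The genes Isg15, Usp18, Ifit1, Ifit3, Ifit3b, Oas1a, Oasl2, Rsad2, Rtp4 and Iigp1 are interferon-stimulated genes whose transcripts were lower after MGH-CP1 in a mouse vascular tumour line. The 10 genes were taken by name from the authors' table of MGH-CP1 against vehicle, which lists 471 genes. They were chosen by their measured values: each is listed there as lower with MGH-CP1 and had enough counts to test, so the change in this comparison is given as a description, with no test.

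The cells are EHE17, a mouse endothelial tumour line of genotype TC+/+ Cdkn2a -/-, which vehicle and treated cells share. Lines of this name come from a mouse model of epithelioid hemangioendothelioma, in which a fusion of TAZ with CAMTA1 drives a blood vessel tumour. TC is not spelled out in the labels and is read here, from general knowledge, as that fusion. Cells received DMSO as vehicle, 10 µM of MGH-CP1 or 300 nM of dinaciclib, with each compound present for 16 h and 3 biological replicates in each group. All groups come from this same line, grown in serum with endothelial growth supplement, and no added interferon or virus is named in the labels. MGH-CP1 keeps TEAD transcription factors, through which YAP and TAZ act on DNA, from being palmitoylated, and dinaciclib inhibits cyclin-dependent kinases. In bulk RNA, fewer expressing cells and less RNA per cell cannot be told apart.

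As background, a cell that senses foreign or misplaced nucleic acid makes type I interferon, which binds its receptor and activates the kinases JAK1 and TYK2. The signal ends on transcription factor complexes that bind a short promoter sequence, the interferon-stimulated response element. IRF proteins can bind the same element directly, and many cells also keep a low level of such transcripts without added interferon. The proteins encoded include RNA-binding IFIT proteins, the OAS family of RNA sensors, the enzyme viperin, the ubiquitin-like modifier ISG15 and its protease USP18, and GTPases that attack the vacuoles of parasites.

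The promoter sequences are shown because the 10 genes share this textbook route of control, and the letters let the element be seen. RefSeq promoter windows (build GRCm38.p6, 250 bases before to 50 bases after the start of transcription) matched 7 of the 10 members, all but Usp18, Rtp4 and Iigp1. The motif searched was GAAA, then any 2 bases, then GAAA again, on either strand (TTTC, any 2 bases, TTTC in reverse complement), and overlapping matches were counted separately. It was found in 6 of these 7 genes, against 3.99% of all 27025 genes with a window of that length in the table. In the other genes that the MGH-CP1 table lists as lower, 4 of 77 with a window held it (5.19%), and in the genes listed as higher, 8 of 85 (9.41%). These shares are descriptions: interferon-stimulated genes are known for this element, and a match is not evidence of binding in these cells. Each sequence below is 100 bases, read 5′ to 3′ on the strand of its gene, with every base of a match in capitals. By GENCODE M21 none of the 6 stretches overlaps an exon.

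Ifit1, chr19:34640749-34640848, plus strand: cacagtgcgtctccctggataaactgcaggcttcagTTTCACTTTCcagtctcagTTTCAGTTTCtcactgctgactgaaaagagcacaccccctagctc
Ifit3, chr19:34583345-34583444, plus strand: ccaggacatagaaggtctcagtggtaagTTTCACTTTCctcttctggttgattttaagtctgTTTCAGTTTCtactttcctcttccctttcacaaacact
Ifit3b, chr19:34607741-34607840, plus strand: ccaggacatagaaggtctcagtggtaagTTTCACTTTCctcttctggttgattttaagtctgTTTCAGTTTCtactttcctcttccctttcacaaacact
Oas1a, chr5:120907526-120907625, minus strand: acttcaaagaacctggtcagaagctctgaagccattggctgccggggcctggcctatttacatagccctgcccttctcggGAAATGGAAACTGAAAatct
Rsad2, chr12:26456518-26456617, minus strand: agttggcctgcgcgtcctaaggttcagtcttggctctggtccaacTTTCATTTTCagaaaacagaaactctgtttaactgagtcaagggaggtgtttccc
Isg15, chr4:156200836-156200935, minus strand: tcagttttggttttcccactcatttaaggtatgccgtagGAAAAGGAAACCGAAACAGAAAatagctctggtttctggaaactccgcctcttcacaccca

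The stretches of Ifit3 and Ifit3b are the same at 100 of 100 bases, and each holds a pair of matches in the reverse-complement orientation. Laid over each other without gaps at the offset of that pair, the whole windows of the 2 genes agreed at 201 of 268 bases (75%). This overlay counts every base after an insertion or deletion out of register. With gaps allowed, the 300-base windows of Ifit3 and Ifit3b were identical in 259 of 340 alignment columns, and nearly all other columns were gaps. Ifit1 also has 2 reverse-complement matches, which start 104 and 85 bases before its transcription start. In Isg15 the 3 matches overlap each other and run from 78 to 57 bases before the start. Oas1a carries its 2 overlapping matches from 20 to 5 bases before the start, the nearest of the set. Rsad2 has 1 match, 120 to 111 bases before the start. Oasl2 has none, and its closest sequence, with 1 mismatch to the motif, lies 71 to 62 bases before the start; 38.9% of all genes in the promoter table have a window with at most 1 mismatch. The map of matches shows these positions side by side.

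**Figure D1:**
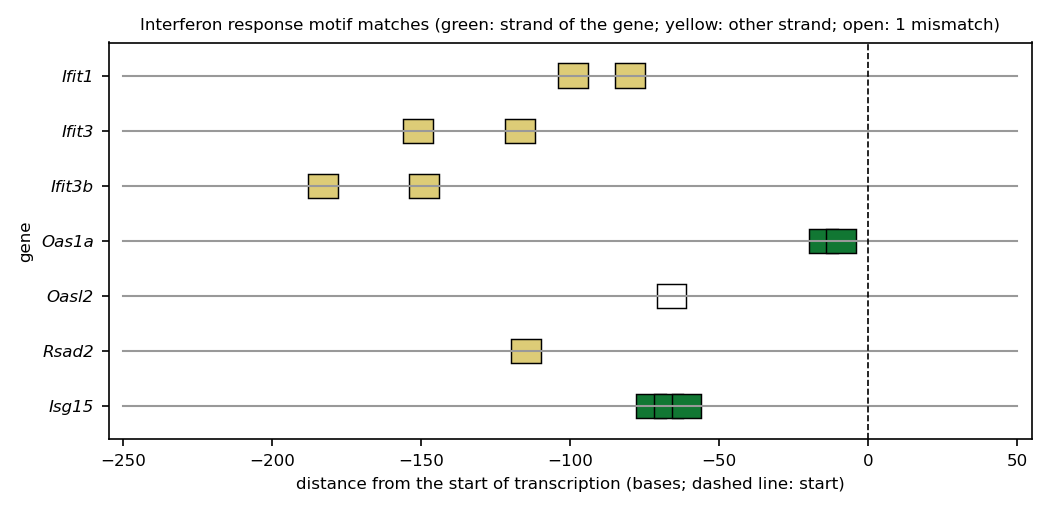
Positions of interferon response motif matches in the promoter windows of 7 members; the x axis is the distance in bases from the start of transcription and each row is a gene. Filled boxes are exact matches (green on the strand of the gene, yellow on the other strand) and the open box in Oasl2 has 1 mismatch; the matches lie from 188 bases (Ifit3b) to 5 bases (Oas1a) before the start.

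The vehicle libraries held 31852117 to 40020833 counts in all and the MGH-CP1 libraries 19934012 to 24310817 counts. The 10 members together took 767, 1069 and 1229 of these counts in vehicle replicates 1 to 3 and 287, 213 and 272 in MGH-CP1 replicates 1 to 3. Kdr, Fli1 and Vwf were the endothelial markers that the 2 tables list, out of 16 looked for, and the levels of the other 13 were not analysed here. Kdr (8417 ± 280 normalised counts in vehicle, SD, n = 3) and Fli1 are in the dinaciclib table. That table was normalised separately, so the Kdr value is not on the scale of the MGH-CP1 values below. Of 14 myeloid markers the MGH-CP1 table lists 2, Cd68 and Lyz2, and of the markers of lymphoid, plasmacytoid dendritic, fibroblast, mural and epithelial cells it lists none. The values below are normalised counts, meaning counts divided by the authors' size factor for each library, unless FPKM (counts scaled by gene length and library total) is named.

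With MGH-CP1 the 10 transcripts stood at 20.4% to 48.4% of their vehicle level, with a median log2 change of -1.34. The IFIT genes had the lowest remaining share and Usp18 the highest. Summed over the members, the normalised counts were 319 ± 16.3 with MGH-CP1 against 804 ± 111 in vehicle (SD, n = 3). For 9 of the 10, every MGH-CP1 library lay below every vehicle library; Oasl2 was the exception. The same was true of 50.1% of all 355 tested genes of the table and of 98.9% of the 180 tested genes with a negative change, and 48.5% of all tested genes lay wholly above vehicle, so the separation is a property of how the table was made and nothing about the members is read from it. In edgeR's quasi-likelihood test (Benjamini-Hochberg adjusted) 100% of the tested genes of the table passed, 50.7% as lower and 49.3% as higher, since the authors listed only genes that differed in these same libraries, and no call of a member is read from it.

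**Figure D2:**
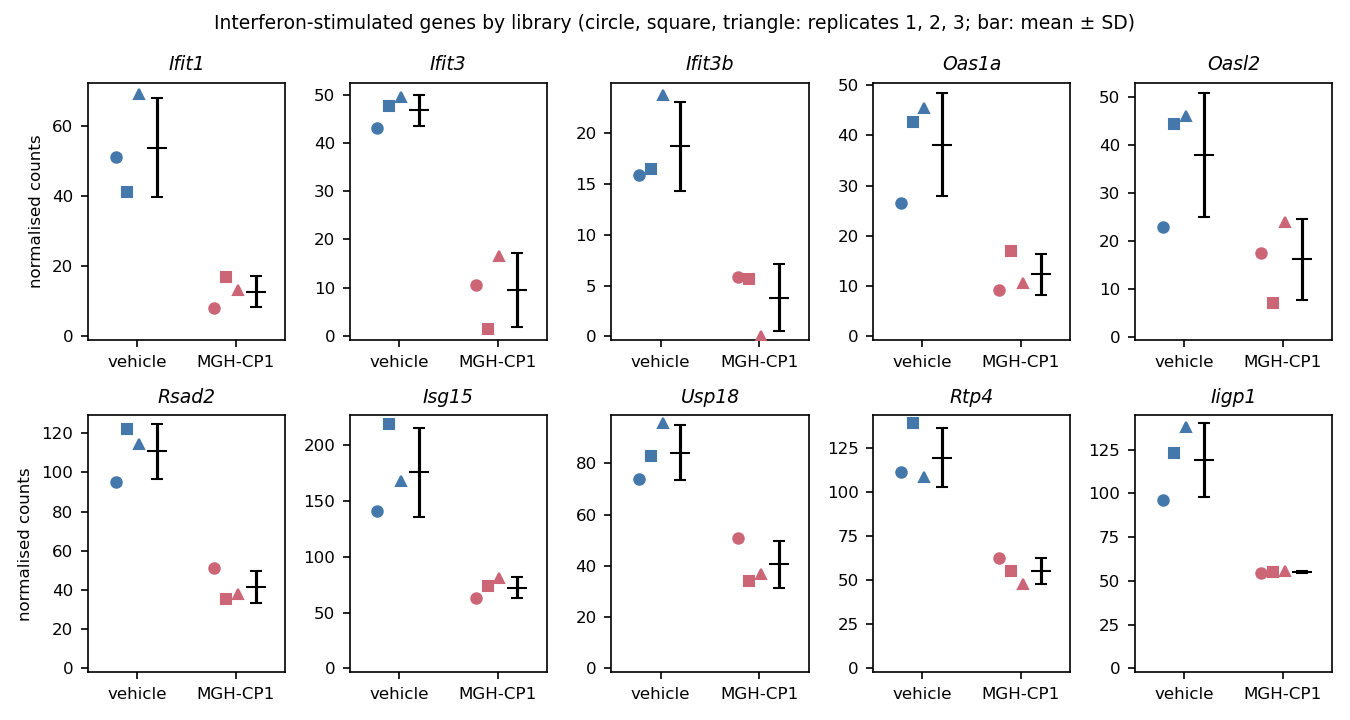
Normalised counts (y axis, from 0) of the 10 members in each library, vehicle in blue and MGH-CP1 in red, with the mean ± SD of 3 replicates as a bar beside the points. The groups do not overlap in 9 panels; in Oasl2 the MGH-CP1 replicate 3 (23.8) lies above vehicle replicate 1 (22.9).

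The IFIT proteins bind viral RNA and block its translation. Ifit1 (ENSMUSG00000034459, chromosome 19, 34640871 to 34650009), which encodes the member that recognises RNA lacking the host cap methylation, gave 51.2, 41.1 and 69.1 in vehicle and 8.11, 16.95 and 13.1 with MGH-CP1. Its vehicle values were thus at least 2.42 times any treated value, with a log2 change of -2.10 (SE 0.350). Its transcript matches Ifit1bl2 at 84.5% over 801 bases and Ifit1bl1 at 86.0% over 730 bases, and reads falling there may be shared. Ifit3 (ENSMUSG00000074896, chromosome 19, 34583531 to 34588731), whose human counterpart is a binding partner of IFIT1, gave 43.2, 47.6 and 49.6 in vehicle. With MGH-CP1 it gave 10.4, 1.41 and 16.6, which are 9, 1 and 14 counts. The vehicle libraries of Ifit3 were the closest together of any member (coefficient of variation 6.93%) and its treated libraries were far apart (80.7%). The log2 change was -2.24 (SE 0.464), and it ranged from -2.88 without MGH-CP1 replicate 3 to -1.79 without replicate 2. Ifit3b (ENSMUSG00000062488, chromosome 19, 34607970 to 34613401) was the scarcest IFIT transcript, at 15.9, 16.4 and 23.7 in vehicle and 5.79, 5.65 and 0 with MGH-CP1. Its 9 counts in 3 treated libraries gave a log2 change of -2.29 (SE 0.599), from -2.80 without MGH-CP1 replicate 1 to -1.70 without replicate 3.

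Ifit3 and Ifit3b transcripts share 97.8% of bases over an aligned 1700 bases, so reads between them may be split or dropped and their values are not independent. The mean normalised count of Ifit3 was 2.51 times that of Ifit3b in vehicle, and 2.34 to 2.81 times when 1 library was left out. With MGH-CP1 the ratio was 2.49, but it rests on Ifit3 counts of 9, 1 and 14 beside Ifit3b counts of 5, 4 and 0, and was 1.03 without replicate 3 and 4.67 without replicate 2. The balance of the pair with MGH-CP1 could not be determined at this depth. With their counts summed into 1 gene, the median log2 change of the members was -1.28. The 3 IFIT genes lie on 1 strand of chromosome 19, with 19239 bases between Ifit3 and Ifit3b and 27470 between Ifit3b and Ifit1.

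OAS enzymes make short 2′-5′ linked oligoadenylates when they meet double-stranded RNA, and these switch on the ribonuclease RNase L. Oas1a (ENSMUSG00000052776, chromosome 5, 120896256 to 120907521) gave 26.5, 42.7 and 45.4 in vehicle and 9.27, 16.95 and 10.7 with MGH-CP1. Vehicle replicate 1 was the low one and MGH-CP1 replicate 2 the high one, and the groups stayed apart, with a log2 change of -1.65 (SE 0.364). Its transcript shares 97.6% of bases over 1861 aligned bases with Oas1g, so reads of the 2 genes may be split and the value is uncertain. Oasl2 (ENSMUSG00000029561, chromosome 5, 114896936 to 114912234), an OAS-like protein with ubiquitin-like repeats, gave 22.9, 44.3 and 46.1 in vehicle. With MGH-CP1 it gave 17.4, 7.06 and 23.8, so the groups overlapped through vehicle replicate 1 and MGH-CP1 replicate 3. The log2 change was -1.21 (SE 0.424). Without MGH-CP1 replicate 2 it was -0.88.

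Rsad2 (ENSMUSG00000020641, chromosome 12, 26442746 to 26456452) encodes viperin, which turns CTP into a chain-terminating nucleotide. It gave 95.3, 122 and 114 in vehicle and 51.0, 35.3 and 38.0 with MGH-CP1, a log2 change of -1.41 (SE 0.222). The lowest vehicle library was 1.87 times the highest treated one. Cmpk2, the nucleotide kinase that supplies CTP and is known to be induced with viperin, is its neighbour, 12752 bases away on the opposite strand. Cmpk2 gave 64.4, 101 and 135 in vehicle and 46.3, 50.9 and 43.98 with MGH-CP1, with a log2 change of -1.10 (SE 0.279). Vehicle replicate 1 was the lowest vehicle library for both genes of this pair.

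Isg15 (ENSMUSG00000035692, chromosome 4, 156199424 to 156200818) encodes the ubiquitin-like protein that is attached to other proteins during interferon responses. It was the most abundant member, at 140, 218 and 168 in vehicle and 62.6, 73.5 and 80.8 with MGH-CP1. The groups were separate, with a log2 change of -1.28 (SE 0.208). A processed pseudogene, AC151275.1, matches 482 bases of its 756-base transcript at 95.2%, so some reads may be shared with it. Usp18 (ENSMUSG00000030107, chromosome 6, 121245906 to 121270917) encodes the protease that removes ISG15 and also blocks signalling at the type I interferon receptor, and is thus a brake on the pathway. Usp18 gave 74.1, 82.9 and 95.6 in vehicle and 51.0, 33.9 and 36.8 with MGH-CP1. Its log2 change of -1.05 (SE 0.235) was the smallest of the members, and it shares 124 exonic bases with a long non-coding RNA gene on the opposite strand, which libraries without a strand mark cannot separate. In the authors' deposited table Usp18 has a log2 fold change of -1.05, the member nearest to the smallest absolute value listed there (1.00). By adjusted p, Oasl2 is nearest to the edge of the authors' deposited table, at 0.0404 against a largest listed value of 0.04998. Interferon-stimulated genes just outside those limits were not analysed here.

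Rtp4 (ENSMUSG00000033355, chromosome 16, 23520291 to 23614222) encodes a chaperone of G protein-coupled receptors that is strongly interferon-induced. It gave 111, 139 and 108 in vehicle and 62.6, 55.1 and 47.5 with MGH-CP1, a log2 change of -1.11 (SE 0.204). It shares 296 exonic bases with Gm45338 on the same strand, so reads falling there cannot be assigned to either gene. Iigp1 encodes a GTPase of the immunity-related family, which is loaded onto parasite vacuoles in mouse cells. Its values were 96.1, 123 and 138 in vehicle and 54.5, 55.1 and 55.9 with MGH-CP1. The treated libraries of Iigp1 were the closest together of any member (coefficient of variation 1.28%), and its log2 change was -1.11 (SE 0.204), almost that of Rtp4.

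**Figure D3:**
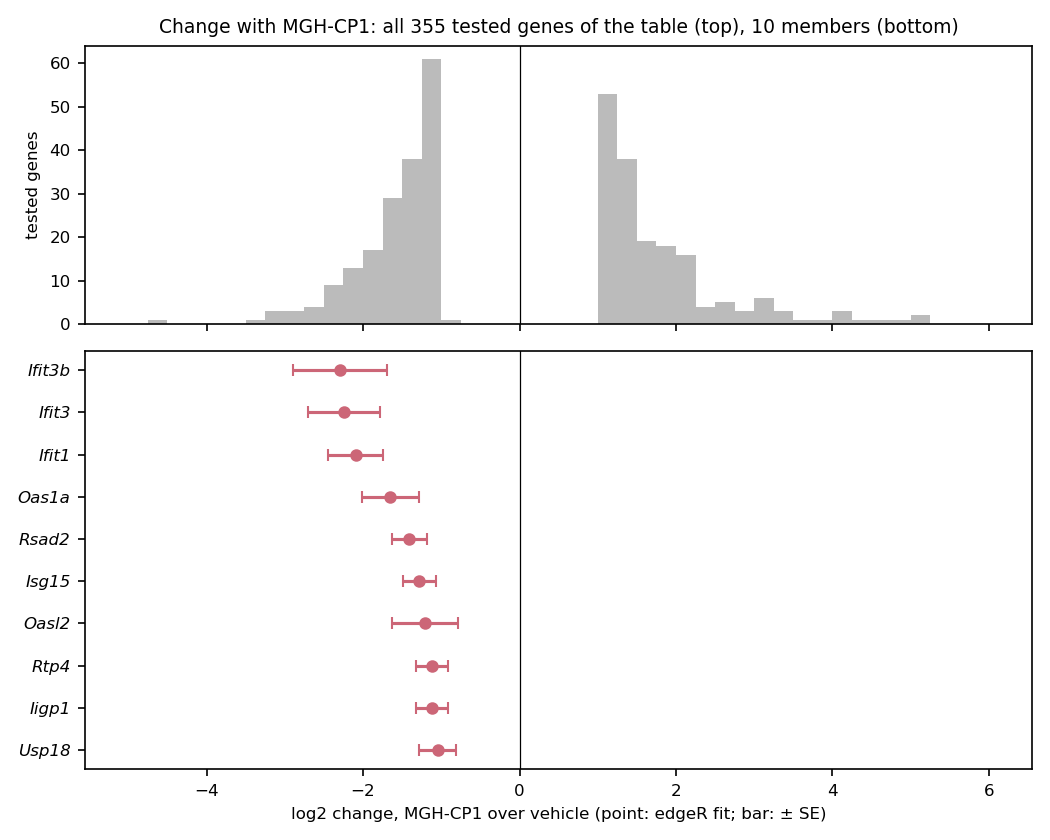
Top, the number of tested genes (y axis) by log2 change with MGH-CP1 over vehicle (x axis, bins of 0.25) for all 355 tested genes of the table; bottom, the fitted log2 change ± SE of the 10 members on the same x axis. The table holds almost no gene between -1 and 1; the members run from -2.29 (Ifit3b) to -1.05 (Usp18).

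The median of the 10 members (-1.34) lay beside a median of -1.43 for the other 170 tested genes with a negative change, and 4 members were at or beyond that median. These were the 3 IFIT genes and Oas1a. With Oasl2 they were also the 5 members that had 40 counts or fewer over the treated libraries together. The 5 members with more counts ran from -1.41 (Rsad2) to -1.05 (Usp18).

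Per length, Isg15 far exceeded the rest. In vehicle it stood at 8.28 ± 1.87 FPKM, followed by Rtp4 at 2.00 ± 0.281 and Iigp1 at 1.36 ± 0.247 (SD, n = 3). Their ranges over the libraries were separate for Isg15 against Rtp4 and for Rtp4 against Iigp1. From Iigp1 down through Usp18 (1.08 ± 0.142), Ifit3 (0.957 ± 0.0690), Rsad2 (0.911 ± 0.116), Oas1a (0.723 ± 0.195) and Ifit1 (0.723 ± 0.193), each gene's FPKM range overlapped that of the next. Ifit3b (0.333 ± 0.0793) and Oasl2 (0.212 ± 0.0726) came last, each with a range apart from the gene above it.

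With MGH-CP1 the same 4 genes led in the same order, with Isg15 at 3.396 ± 0.433, Rtp4 at 0.918 ± 0.125, Iigp1 at 0.627 ± 0.00827 and Usp18 at 0.516 ± 0.116 FPKM. Ifit3 was at rank 5 in vehicle and rank 7 with MGH-CP1, at 0.193 ± 0.156, where its range overlapped those of Oas1a above and Ifit1 below. Isg15 made up 49.9% of the members' summed mean FPKM in vehicle and 51.8% with MGH-CP1. In vehicle, 6 members stood above the median FPKM of all tested genes in the table (0.904), and with MGH-CP1 2 did (median 0.744). The members were chosen as lower and that median covers genes that fell and genes that rose, so nothing is read from this drop.

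The replicates of each group also differed among themselves. Vehicle replicate 1 had the lowest value for 8 of the 10 members and the highest for 0, while vehicle replicate 3 had the highest for 7. Among the 180 tested genes with a negative change, members included, vehicle replicate 1 was the lowest for 25% and the highest for 46.1%. Expressed as a share of each gene's vehicle mean, the members' median was 85.5% in vehicle replicate 1, 107% in replicate 2 and 115% in replicate 3. The MGH-CP1 replicates had medians of 40.7%, 36.1% and 37.7%, and no one of them was lowest for more than 4 members. Within groups, Rsad2, Usp18 and Iigp1 followed the mean of the other members most closely: the correlation of their deviations from the group means, on log2(normalised count + 1) over the 6 libraries, was 0.81, 0.81 and 0.79. The other members were lower: Oasl2 gave 0.43, Rtp4 0.25, Isg15 0.15 and Oas1a 0.03. The IFIT genes gave -0.46 (Ifit1), -0.21 (Ifit3) and -0.39 (Ifit3b), on few counts. Isg15 had the most counts of the members and Oasl2 few, so the values do not follow the counts alone. Libraries also share their depth across genes.

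**Figure D4:**
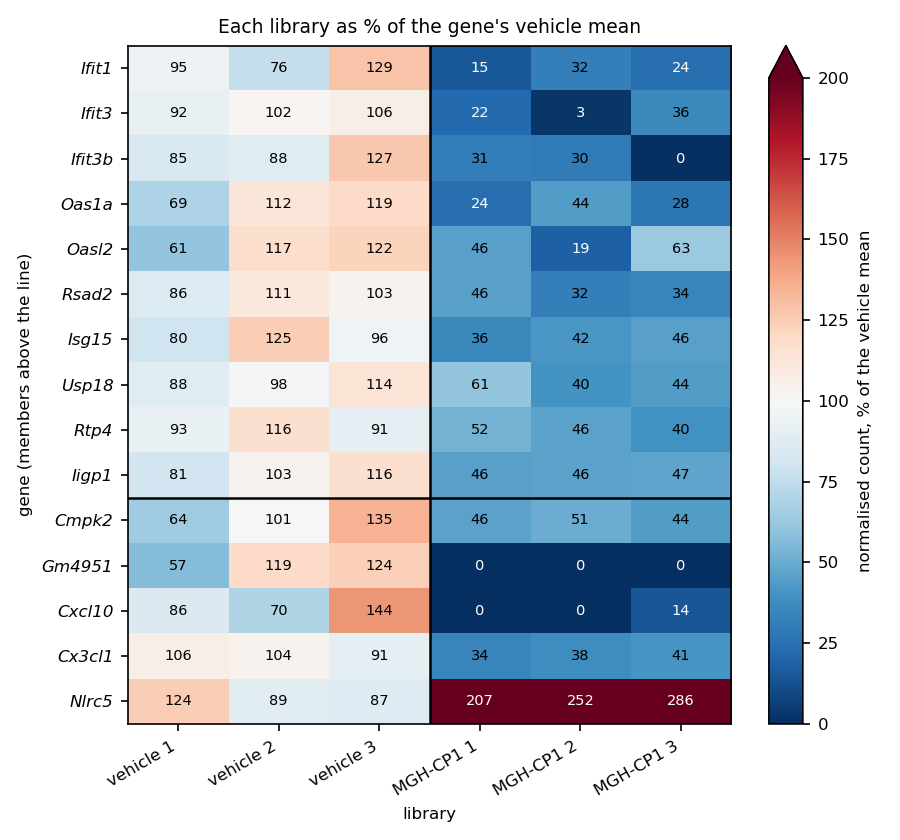
Normalised count of each gene in each library as a percentage of that gene's vehicle mean (colour scale, capped at 200%), for the 10 members above the line and 5 other interferon pathway genes of the table below it. The members' medians are 85.5% in vehicle replicate 1 and 36.1% to 40.7% in the MGH-CP1 libraries; Nlrc5 runs the other way.

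Lists of other interferon pathway genes were compared with the same table. It lists none of 21 interferon ligand genes, 6 receptor genes, 20 genes for JAK kinases, STAT factors and IRF factors, 35 genes for nucleic acid sensors and their adaptors, 15 further OAS and IFIT genes, 30 further GTPase genes and 32 antigen presentation genes. Of 96 other interferon-induced antiviral genes it lists 2 (Cmpk2 and Gm4951). Of 16 negative regulators it lists 1 (Nlrc5), and of 16 chemokine and cytokine genes 2 (Cxcl10 and Cx3cl1). A gene that is not in the table is not reported as unchanged, since the table holds only genes past the authors' limits. Of 287 pathway genes in all, 5 were listed, 3 had enough counts to test, and by edgeR's quasi-likelihood test 2 fell (Cmpk2 and Cx3cl1) and 1 rose (Nlrc5), beside the 50.7% of tested genes that were lower and the 49.3% that were higher. The table also lists Ifi30, which is on none of these lists and is named here after its values were seen. It encodes a lysosomal thiol reductase inducible by interferon gamma, and gave 18.5, 26.3 and 14.7 in vehicle and 46.3, 53.7 and 27.3 with MGH-CP1. Every treated library exceeded every vehicle library, opposite to the members, with a log2 change of 1.09 (SE 0.346).

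The 2 genes with too few counts to test were both lower. The authors listed them, like every gene there, because they differed in these same libraries. Of all 471 listed genes, 201 were lower and 270 higher, so the values of these 2 are a description. Cxcl10, which encodes the chemokine that draws CXCR3-bearing T cells, had 8, 7 and 17 counts in the vehicle libraries and 0, 0 and 1 with MGH-CP1. Scaled by size factors its vehicle level was 20.4 times the treated level, with a 95% counting interval of 3.41 to 831 (exact, conditional binomial). Gm4951, a relative of Iigp1 that lies 128209 bases from it on chromosome 18, had 4, 9 and 11 counts in vehicle and 0 in all 3 treated libraries. Taking 3 counts over the group as the floor, it was at least 5.10-fold lower. Its transcript matches 41.0% of the length of Iigp1 at 86.5%, and reads falling there may be shared. The interval covers counting error only. The bound takes the vehicle counts as exact and covers counting error in the treated libraries only, so the 2 limits are not of the same kind.

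Cx3cl1, which encodes the membrane-bound chemokine fractalkine, gave 610, 600.2 and 525 in vehicle and 196, 219 and 237 with MGH-CP1. Its log2 change was -1.41 (SE 0.143), and unlike all 10 members it was highest in vehicle replicate 1. Nlrc5, a NOD-like receptor gene known as the transactivator of MHC class I genes and itself interferon-induced, gave 29.99, 21.3 and 20.9 in vehicle and 49.8, 60.7 and 68.9 with MGH-CP1. Every treated library exceeded every vehicle library, for a log2 change of 1.31 (SE 0.267), opposite to the members. The MHC class I and immunoproteasome genes that Nlrc5 is known for were among the antigen presentation genes not listed.

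Markers of other cell types went both ways beside these changes. Over the 3 libraries of each group, the myeloid markers Cd68 and Lyz2 together gave 189 to 213 normalised counts in vehicle and 138 to 154 with MGH-CP1. Cd68, a lysosomal glycoprotein gene, was higher with MGH-CP1 (12.2 ± 5.08 to 54.8 ± 17.6) and Lyz2, the lysozyme gene, lower (187 ± 16.95 to 92.8 ± 25.7). The endothelial gene Vwf, for von Willebrand factor, was lower (60.0 to 77.2 in vehicle, 14.3 to 31.1 with MGH-CP1). The part of either in the result was not tested.

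Among genes on none of the interferon lists, the 5 whose levels followed the members' mean most closely over the 6 libraries were Phospho1, Pabpn1, Col15a1, Gm3788 and Kcnn3. Their Pearson correlations on log2(normalised count + 1) were 0.99, 0.99, 0.99, 0.99 and 0.98, and rest mainly on the difference between the groups, for which the table was chosen. Phospho1, a phosphatase gene, gave 131, 145 and 182 in vehicle and 37.1, 31.1 and 38.0 with MGH-CP1. Its vehicle replicate 1 was lowest and replicate 3 highest, as in Ifit3, Ifit3b, Oas1a, Oasl2, Iigp1 and Usp18. By deviations from the group means alone, Gm26724 (0.95), Gm26586 (0.95) and P2rx2 (0.88) were the closest, and these 3 were higher with MGH-CP1. Within 200 kb of a member the table lists, apart from members, Cmpk2 and Gm4951, 1 other gene, Gm16008, which was higher.

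The dinaciclib table lists 251 genes with an entry for a tumour type and holds 0 of the 10 members, so their response to dinaciclib was not analysed here. It does list 10 of the 287 other pathway genes. Of the 9 with enough counts, 8 fell and 1 rose in the quasi-likelihood test of edgeR (Benjamini-Hochberg adjusted), beside 74.9% of 247 tested genes that were lower and 25.1% that were higher. Here too 100% of the tested genes passed, so passing does not set the pathway genes apart. Jak2, a kinase of the interferon gamma receptor, gave 436, 439.6 and 461 in vehicle and 40.7, 25.7 and 19.7 with dinaciclib, a log2 change of -3.98 (SE 0.272). The dinaciclib values of Jak2 are only 11, 9 and 6 counts. Stat3, a STAT factor best known from interleukin-6 signalling, gave 1265, 1230 and 1168 against 277, 328 and 321. Jak3, a kinase of lymphocyte cytokine receptors, ran opposite, at 180, 184 and 200 in vehicle and 2740, 1672 and 2539 with dinaciclib. Pml and Daxx, partners in interferon-induced nuclear bodies, stood at 174 ± 33.9 against 795 ± 21.9 and at 32.9 ± 6.76 against 282 ± 7.57. With dinaciclib Daxx had only 11, 10 and 9 counts.

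The other 4 that fell were Stat5b, Trim24, Nfkb2 and Rel, with log2 changes of -1.35, -1.99, -1.35 and -1.83. Rel rests on 19, 13 and 6 counts with dinaciclib. With TMM factors over the listed genes, which moved the median log2 change in that table by 1.62, Nfkb2 and Stat5b changed sign (0.26 and 0.26) and 4 genes kept a call, namely Jak2, Daxx and Pml as lower and Jak3 as higher. The untested gene, Cd74, had 5, 1 and 1 counts in the far deeper vehicle libraries and 1, 0 and 15 with dinaciclib. Its normalised counts were 0.728 ± 0.776 in vehicle and 17.6 ± 27.4 with dinaciclib (SD, n = 3), the latter resting on replicate 3. This comparison uses the same vehicle libraries as MGH-CP1, was normalised separately, and has treated libraries of 2541162 to 3316779 counts, so its values are not set beside the members' changes.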

How the data were processed

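RNA was sequenced after poly(A) selection, with no strand mark by the labels' protocols. Per the submitters' processing notes the authors used DESeq2 1.20.0 and, upstream of it, fastp, HISAT2 2.0.5 and featureCounts 1.5.0-p3. No build was named there. GRCm38 was assumed for coordinates: 471 of 471 identifiers occur in GENCODE M21, and 464 have an identical start and end. Per the file headers the deposited columns are raw read counts, normalised signal (counts over 1 size factor per library, which held for 100% of values within 0.01 counts), FPKM, gene lengths, and the authors' comparison (log2 fold change, p-value, adjusted p-value). Library totals were recovered from counts, FPKM and length.

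Counts were fitted over the whole table with edgeR 4.0.16 (R 4.3.3) quasi-likelihood, two-sided, with 3 libraries per group, the authors' size factors, filterByExpr (minimum count 10) and Benjamini-Hochberg adjustment at 0.05. The listed genes were picked by the authors on these libraries, so adjusted p-values are not error rates over the genome. On simulated counts with a fixed dispersion, calls were made for 79.7% of 74 genes with a true log2 change of 1 and for 1.05% of 190 unchanged genes, among 347 fitted for MGH-CP1. For dinaciclib these were 94.9% of 99 and 3.92% of 51 among 247. Every simulated gene had the same dispersion, unlike the real libraries, so these shares check the fit and do not give error rates or power for these data. The members and lists were chosen with earlier results of these data known. Named genes are the members, all listed pathway genes, the nearest in pattern (5 by level, 3 by deviation) and table neighbours within 200 kb. Near copies were sought with blastn 2.17.0 among GENCODE M21 transcripts. Alternatives were TMM factors, total counts, DESeq2 1.42.0, no filter, the replicate number as a block, log2(FPKM + 0.1) and log2(FPKM + 0.01), summed Ifit3 and Ifit3b, a motif mismatch, and leaving out each replicate. Replicates of a group differed by more than sampling noise; the labels do not say whether they were separate cultures, so p-values measure only the spread between these libraries. Figures used matplotlib 3.10.9.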

Additional observations from a re-analysis of the deposited data

How the results depend on the processing

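The 10 log2 changes were recomputed under each alternative, giving 130 values, and 130 were negative. In 129 the value moved by less than the gene's own replicate SD, and the exception was Ifit1 on log2(FPKM + 0.1), at -1.61. That SD was 0.437 for Ifit1 but 1.07 for Ifit3 and 1.14 for Ifit3b, so the measure is looser for the latter 2. On log2(FPKM + 0.1) Ifit3b moved further than Ifit1, from -2.29 to -1.43. The median of the members stayed between -1.21 and -1.48 when 1 replicate was left out, at -1.22 with TMM factors (which moved the median over all tested genes by 0.12), at -1.35 with total counts and with DESeq2, and at -1.23 on log2(FPKM + 0.1). The number of members with separate groups was 9 with each library scale and 9 to 10 when 1 replicate was left out, 10 without vehicle replicate 1 or MGH-CP1 replicate 3. Leaving out 1 library moved the fold by more than 1.5 times for Ifit3 and Ifit3b. Genes called lower in the whole table numbered 172 to 195 when 1 replicate was left out and 201 with no filter. Of the dinaciclib pathway genes 4 passed with TMM factors. With the replicate number as a block the median was -1.34, and the calls of the table (180 lower) and of the dinaciclib pathway genes (9) were the same in number. Deviations of same-numbered vehicle and MGH-CP1 libraries correlated at 0.03, -0.11 and 0.03 over genes. Those genes were picked for the group difference, so the correlations cannot decide whether the numbers pair the libraries. Depth limits Ifit3b, Ifit3, Oas1a, Ifit1 and Oasl2, with 9 to 40 treated counts.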
